A study of Homo sapiens with 12 samples.

Results

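The 35 genes described here encode the enzymes of glycolysis, the carriers that move glucose in and lactate out, the oxygen-regulated transcription factor HIF1A, its prolyl hydroxylases and genes that HIF1A is known to induce. They were taken by symbol from the 59611 gene symbols of the count table. All 35 were among the 15218 genes that passed the filter on low counts. SLC16A3 and EGLN3 passed it through KOPN-8 alone. Messenger RNA was counted in 697 and KOPN-8, both B-lineage acute lymphoblastic leukaemia lines, in 4 groups of 3 libraries that the labels call biological replicates. Control 697 and control KOPN-8 carried an empty sgRNA vector and are labelled wild type for SETD2, the main enzyme of H3K36 trimethylation. The other groups were clone BM_B of 697 and clone BA of KOPN-8, which received an sgRNA against SETD2 and are labelled heterozygous knockout. All groups grew in the same medium with serum, and the labels name no low-oxygen treatment. Each group labelled edited is 1 clone, so the edit cannot be told apart from other differences of that clone.

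Glycolysis turns glucose into pyruvate in the cytosol, and lactate dehydrogenase then turns pyruvate into lactate so that the pathway can go on without oxygen. HIF1A protein is hydroxylated by the EGLN enzymes and degraded when oxygen is present. When oxygen is scarce it pairs with ARNT and binds sites with the core ACGTG or GCGTG near its target genes, which include most glycolytic enzymes. Leukaemia cell lines are known for a high rate of glycolysis in ordinary culture.

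Library totals ran from 13432744 to 17163305 counts in control 697, from 10378769 to 14350925 in 697 labelled edited, from 13208436 to 17959678 in control KOPN-8 and from 13239627 to 18278662 in KOPN-8 labelled edited. SETD2 mRNA did not fall in the libraries labelled heterozygous knockout. It was 219 ± 17.2 against 161 ± 6.96 CPM (read counts scaled to the library total; mean ± SD, n = 3) in 697, where it was called higher, and 158 ± 6.05 against 169 ± 9.23 CPM in KOPN-8, where it was not called. An edited allele can still be transcribed, so these counts do not check the genotype, and "labelled edited" below gives only what the label says. In every group, each of the 8 B-lineage markers averaged 5 CPM or more. T cell markers summed to at most 0.0605 CPM in 697 and to 16.8 to 25.6 CPM in KOPN-8, nearly all of it TRBC2, with CD3D at 0. Myeloid markers summed to at most 3.44 CPM and erythroid markers to at most 0.0654 CPM. Fibroblast markers, mostly PDGFRB, with COL1A2, COL3A1 and DCN at 0, summed to 47.1 to 90.9 CPM in control 697 and 28.7 to 46.6 CPM in 697 labelled edited. In control KOPN-8 they summed to 7.05 to 7.86 CPM and in KOPN-8 labelled edited to 1.59 to 3.44 CPM. The part of other cells in the results was not tested. Bulk libraries cannot tell a change in each cell from a change in the share of cells that express a gene.

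Promoters are shown first, because HIF1A acts through short motifs in such windows. GPI, KDM3A and BNIP3 were called higher in a clone, and LDHA, which was called in neither, is a HIF1A target of textbooks shown beside them. PFKL, GAPDH and HIF1A were also called higher in a clone and are not shown. The 250 bases before each annotated start were taken from RefSeq (GRCh38.p14), read 5′ to 3′ on the gene's strand. Capitals mark ACGTG or GCGTG on either strand, so that they also appear as CACGT and CACGC, and CACGTG counts once in each direction.
BNIP3, chr10:131981924-131982173, minus strand: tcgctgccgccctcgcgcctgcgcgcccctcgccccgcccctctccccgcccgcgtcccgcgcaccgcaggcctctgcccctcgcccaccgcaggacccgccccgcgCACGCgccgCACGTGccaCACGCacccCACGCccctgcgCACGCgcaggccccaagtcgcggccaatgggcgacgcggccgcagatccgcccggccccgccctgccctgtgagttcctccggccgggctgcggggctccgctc
LDHA, chr11:18394313-18394562, plus strand: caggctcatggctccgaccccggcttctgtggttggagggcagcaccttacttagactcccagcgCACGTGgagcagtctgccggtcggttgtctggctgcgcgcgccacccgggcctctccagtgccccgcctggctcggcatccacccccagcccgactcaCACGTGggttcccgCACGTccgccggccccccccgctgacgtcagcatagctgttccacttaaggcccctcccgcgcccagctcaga
GPI, chr19:34364742-34364991, plus strand: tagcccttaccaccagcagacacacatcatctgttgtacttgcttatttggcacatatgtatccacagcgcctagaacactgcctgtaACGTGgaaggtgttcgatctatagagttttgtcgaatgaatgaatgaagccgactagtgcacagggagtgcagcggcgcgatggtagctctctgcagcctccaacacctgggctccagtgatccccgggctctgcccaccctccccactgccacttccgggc
KDM3A, chr2:86441121-86441370, plus strand: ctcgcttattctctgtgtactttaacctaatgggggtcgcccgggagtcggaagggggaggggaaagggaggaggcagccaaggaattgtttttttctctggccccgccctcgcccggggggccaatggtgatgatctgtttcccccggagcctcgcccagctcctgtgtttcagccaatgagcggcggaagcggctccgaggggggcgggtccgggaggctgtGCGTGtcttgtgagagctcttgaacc
The BNIP3 window held 4 matches to GCGTG and 2 to ACGTG, the LDHA window shown 5 to ACGTG, the GPI window 1 to ACGTG and the KDM3A window shown 1 to GCGTG. A second LDHA window held 1 match to GCGTG and none to ACGTG, and a second KDM3A window overlapped the one shown and held the same match. Of 58 windows for 30 of the 35 genes, 37.9% held ACGTG, against 18.5% of 35116 windows of the same length over all genes. GCGTG was in 32.8% of the members' windows and in 32.2% of all windows. Either string was in 58.6% of the members' windows and in 43.2% of all windows. The windows shown all hold a match and so do not stand for all members. Several genes have more than 1 window, and windows of a gene can overlap. The 35 genes include ones chosen because HIF1A is known to induce them, so the higher ACGTG share is not an independent finding. VEGFA, SLC16A1, SLC2A3, NDRG1 and BNIP3L had no entry in that table. A match is a string of letters and does not show that HIF1A binds there.

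Libraries of the same group differed in these genes, and this touches every comparison with 697. In control 697 the library numbered 2 had the highest level for 25 of the 33 members with counts, and in 697 labelled edited the library numbered 2 had it for 29 of 34. Over all genes with counts those libraries were highest for 34.98% and 33.0%. Against the mean of the other 2 libraries of its group, on log2(CPM + 0.5), the library numbered 2 had a median log2 ratio over members of 0.30 in control 697 and 0.36 in 697 labelled edited, while the median over all genes was -0.00035 and -0.0022. It exceeded that mean by more than 1.2-fold for 17 and 24 members, where 12.3% and 11.4% of all genes did so. PFKFB4 was 1.85 and 2.42 times the mean of the other libraries, HK1 1.64 and 2.03 times, NDRG1 1.71 and 1.75 times, P4HA1 1.56 and 1.69 times and SLC2A1 1.38 and 1.67 times. HIF1A mRNA went the other way, at 0.914 and 0.842 times. So did SLC16A1, at 0.888 and 0.939 times, and LDHB, at 0.924 and 0.970 times. The libraries numbered 2 had the highest totals of both 697 groups. In KOPN-8 labelled edited the library numbered 2 had the lowest total of its group and the highest level for 24 of 35 members. It was highest for 33.5% of all genes. Its median log2 ratio was 0.14 over members and -0.00068 over all genes. In control KOPN-8 the libraries numbered 2 and 3 were highest for 16 and 18 of 35, and for 33.2% and 32.1% of all genes. Among genes averaging 20 CPM or more, the median coefficient of variation over libraries was 13.8% for members against 7.13% for all genes in control 697, and 17.1% against 6.62% in 697 labelled edited. In KOPN-8 it was 6.94% against 4.35% and 8.30% against 5.34%. Members' deviations from their group means also went together between same-numbered control and labelled-edited libraries, with r of 0.79, 0.89 and 0.44 over 33 members in 697 and of 0.64, 0.60 and 0.58 over 35 in KOPN-8. These r are descriptive, over genes of the same libraries. The labels do not say what a replicate number marks, and the part of culture or handling was not tested.

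**Figure D1:**
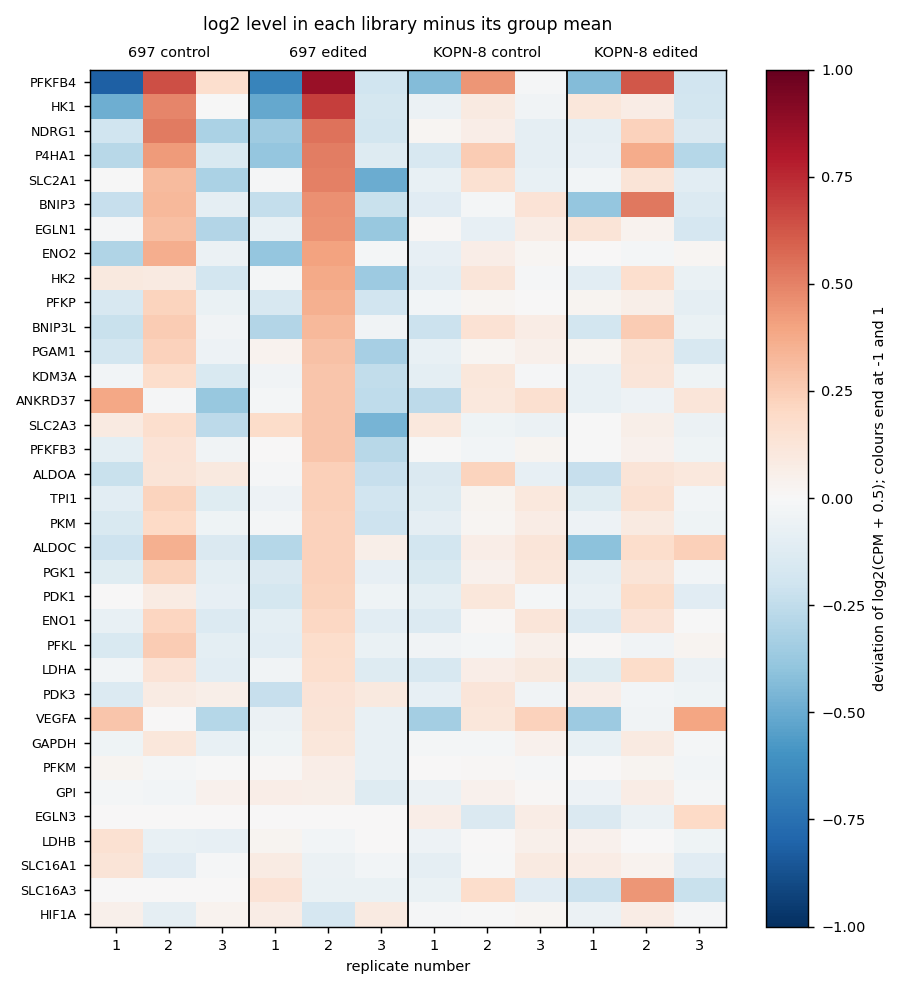
Deviation of each gene's log2(CPM + 0.5) from its group mean in the 12 libraries (columns, by group and replicate number), with genes as rows sorted by the value in library 2 of 697 labelled edited ("edited" in the plot) and colours that end at -1 and 1. The columns numbered 2 of both 697 groups are red for most genes, from PFKFB4 at the top, while HIF1A in the bottom row is blue there.

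In the unpaired test over all 12 libraries, 2 of the 35 genes were called in the 697 clone labelled edited and 7 in the KOPN-8 clone. No gene was called in both. In 697, GPI and KDM3A were called higher, none was called lower and 33 were not called (edgeR quasi-likelihood test, Benjamini-Hochberg adjusted p under 0.05). That is 5.71% of members, where 9.45% of all genes tested were called, 4.85% higher and 4.6% lower. At an unadjusted p under 0.05, 3 members were higher and 2 lower, where 22.2% of all genes passed in either direction. DESeq2 called 2 members higher and 1 lower, ALDOA (-0.39, adjusted p = 0.0453), against 9.46% of all genes. In KOPN-8, 4 members were called higher (PFKL, GAPDH, HIF1A and BNIP3) and 3 lower (PFKM, ENO2 and SLC16A1), which is 20.0% of members against 28.7% of all genes (11.5% higher and 17.2% lower). The median log2 fold change of the members was 0.05 in 697 and -0.02 in KOPN-8, with 0 over all genes in both. With same-numbered libraries kept as pairs, the 697 test called 6 members higher and 3 lower, against 15.2% of all genes (7.6% higher and 7.64% lower). The added genes were HK1 (0.37, adjusted p = 0.00272), PFKP (0.22, 0.00914), PFKFB4 (0.79, 1.28e-06) and ANKRD37 (0.50, 0.0145) on the higher side. On the lower side they were PFKL (-0.23, 0.00457), ALDOA (-0.38, 0.00197) and VEGFA (-0.25, 0.0437). Without library 2 of both 697 groups the unpaired test called 2 members higher and none lower, while the genes called fell from 1438 to 853.

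**Figure D2:**
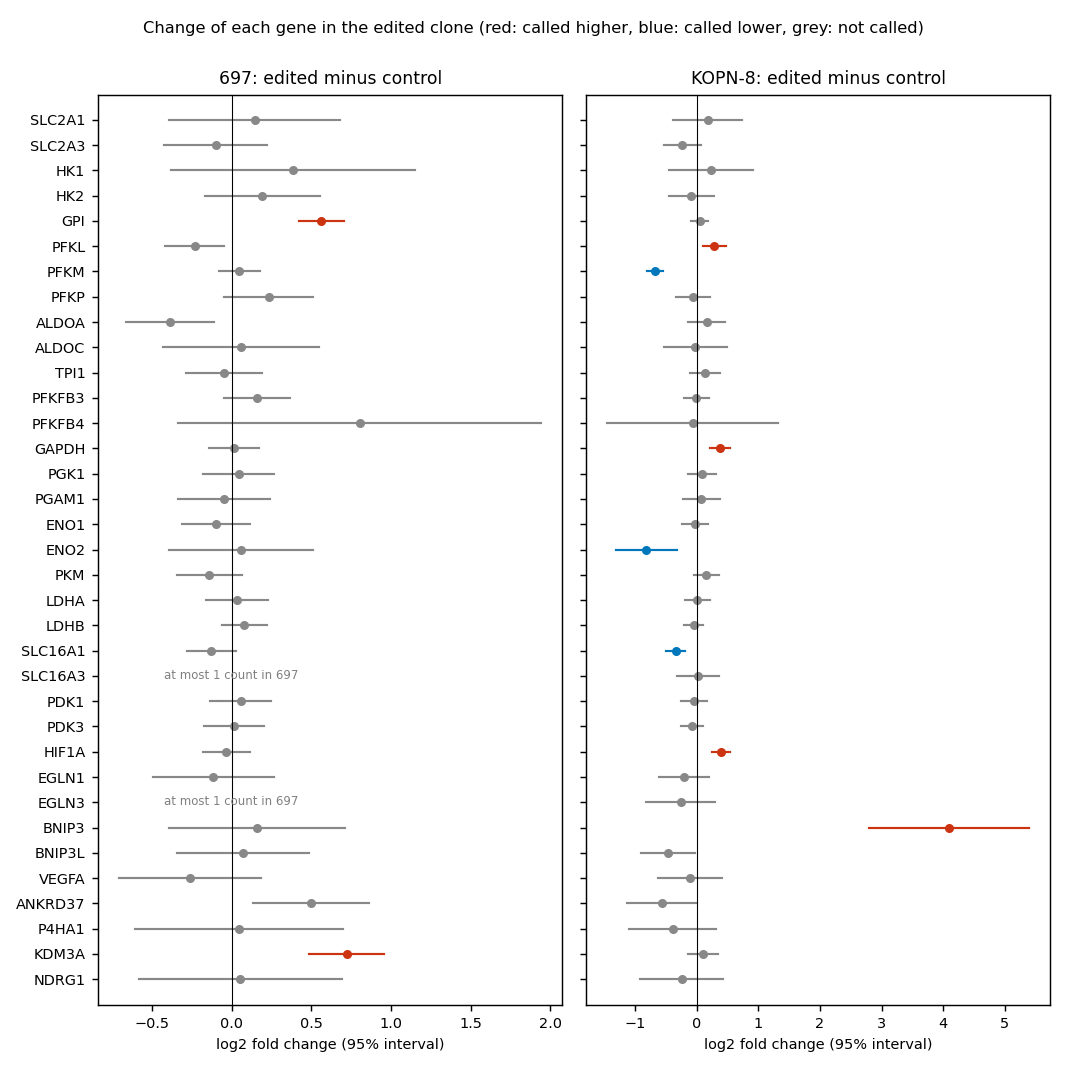
Log2 fold change with its 95% interval for each gene in the clone labelled edited against its control, in 697 (left) and KOPN-8 (right), on x axes of different range. Red points were called higher, blue points lower and grey points not called, and no 697 value is drawn for SLC16A3 and EGLN3, which had at most 1 count there. BNIP3 in KOPN-8 lies at 4.10, apart from all others, and PFKFB4 in 697 has the widest interval of that panel.

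More of these genes differed between the controls of the lines than between a clone and its control. Between control KOPN-8 and control 697, 26 members were called lower in KOPN-8, 6 higher and 3 not called (PFKL, PFKP and PFKFB3). Of all genes, 36.7% were called lower, 36.6% higher and 73.3% in either direction. SLC16A3 and EGLN3 are among the 6. They had 0 counts in control 697 and passed the filter through KOPN-8 alone, so they could differ in that direction only. The members' median was -0.98 on the log2 scale and that of all genes -0.01. PFKP was called lower without library 2 of 697 labelled edited (-0.20, adjusted p = 0.0263), and PFKL higher without library 2 of both 697 groups (0.15, adjusted p = 0.0444). Together the 35 genes held 1.64% to 1.91% of all counts in control 697 and 0.800% to 0.890% in control KOPN-8. The groups labelled edited held 1.62% to 1.91% in 697 and 0.888% to 1.01% in KOPN-8. Per kilobase of exonic length, GAPDH and ENO1 ranked first and second among the members in every group. This comparison uses the control libraries that both edit comparisons also use, and the lines differ in far more than these genes.

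**Figure D3:**
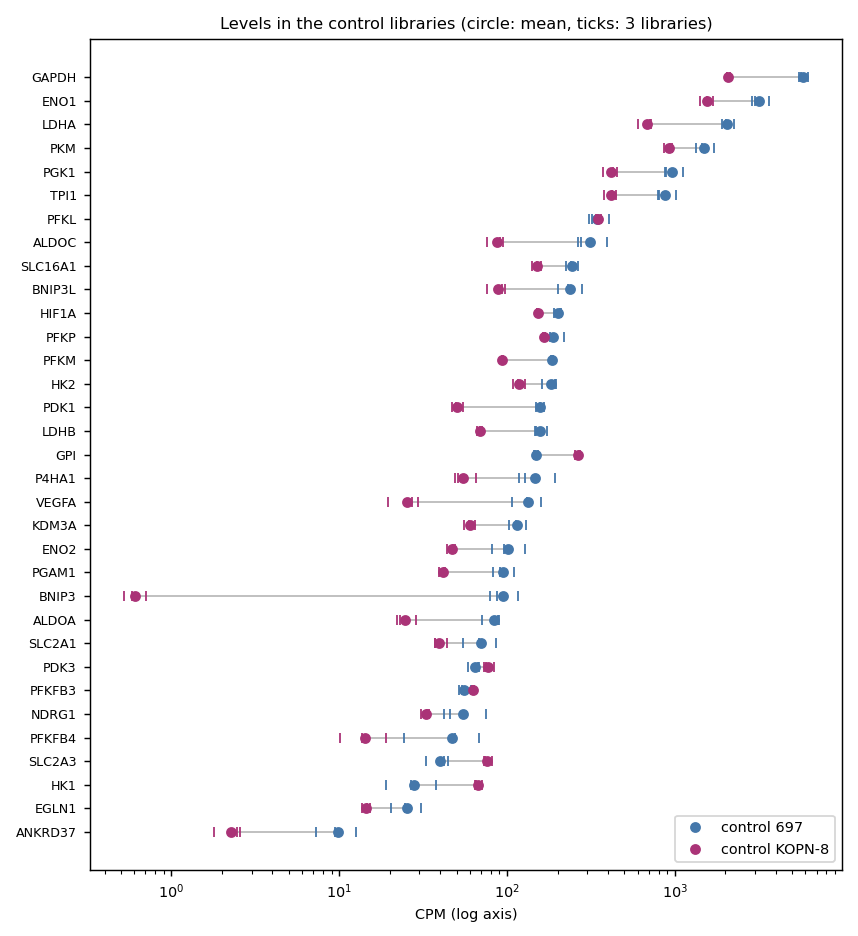
CPM on a log axis in the 2 control groups for 33 of the genes, with circles at the means and ticks at the 3 libraries of a group. SLC16A3 and EGLN3 are left out because they had 0 counts in control 697. Most KOPN-8 circles lie left of those of 697, BNIP3 farthest at 0.603 against 94.1 CPM, while GPI, HK1, SLC2A3, PDK3, PFKFB3 and PFKL lie to the right.

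Glucose transporters were not called in either clone in the test over all 12 libraries. SLC2A1, the widely expressed carrier GLUT1 that HIF1A induces, had 68.5, 85.4 and 54.9 CPM in control 697 and 73.1, 105 and 52.2 CPM in 697 labelled edited, and these ranges overlapped. Its log2 fold change was 0.14 (95% interval -0.39 to 0.68) in 697 and 0.18 (-0.38 to 0.74) in KOPN-8. SLC2A3, the high-affinity carrier GLUT3, had -0.10 (-0.42 to 0.23) and -0.23 (-0.53 to 0.07), and its KOPN-8 value was called lower with the 6 KOPN-8 libraries fitted alone (adjusted p = 0.00945) and without library 3 of 697 labelled edited (0.0483). The lines differed in which carrier led. Per kilobase, SLC2A3 made up 37.0 ± 2.09% of the SLC2A1 and SLC2A3 signal in control 697 and 66.4 ± 2.97% in control KOPN-8 (mean ± SD, n = 3). In control KOPN-8, SLC2A3 was higher than in control 697 (0.93, adjusted p = 3.32e-05) and SLC2A1 lower (-0.83, adjusted p = 0.0121), the latter with an adjusted p of 0.0516 without library 2 of control 697.

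Hexokinase traps glucose in the cell by phosphorylating it, and GPI turns the product into fructose 6-phosphate. GPI rose in 697. It stood at 146, 145 and 153 CPM in control libraries and at 229, 227 and 199.7 CPM in those labelled edited, so that each of the latter exceeded each control. The means were 148 ± 4.10 and 218 ± 16.2 CPM and the log2 fold change 0.56 (SE 0.0673, adjusted p = 2.1e-06). In KOPN-8, GPI was higher in the control than in control 697 (0.85, adjusted p = 4.35e-11), at 266 ± 9.47 CPM, and had 275 ± 12.3 CPM in the clone labelled edited (0.05, 95% interval -0.08 to 0.19, not called). The 2 changes differed by -0.51 (SE 0.0941, adjusted p = 0.000266). HK2, the hexokinase that HIF1A induces, and HK1, the ubiquitous one, were not called in either line in the unpaired test over all 12 libraries. With libraries paired, HK1 was called higher in 697 (0.37, adjusted p = 0.00272). With the 6 KOPN-8 libraries fitted alone, HK1 was called higher there (0.24, adjusted p = 0.012). HK1 had 19.0, 37.9 and 26.8 CPM in control 697 and 23.7, 55.4 and 30.2 CPM in 697 labelled edited, lowest in library 1 and highest in library 2 of both groups. Per kilobase, HK2 made up 83.8 ± 4.60% of hexokinase in control 697 and 58.0 ± 0.792% in control KOPN-8. HK1 was higher in control KOPN-8 than in control 697 (1.25, adjusted p = 0.00641) and HK2 lower (-0.64, adjusted p = 0.00437).

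Phosphofructokinase makes the committed step of glycolysis, and 2 of its isozymes moved in opposite directions in KOPN-8. PFKM, the muscle-type subunit, fell. Its levels were 93.9, 94.4 and 93.0 CPM in control KOPN-8 and 58.9, 59.7 and 57.4 CPM in KOPN-8 labelled edited, 2 tight sets with no overlap. The log2 fold change was -0.68 (SE 0.0640, adjusted p = 1.08e-08). In 697, PFKM had 188, 182 and 184 CPM in control libraries and 193, 200.003 and 181 CPM in those labelled edited (0.05, 95% interval -0.08 to 0.18), and the difference of the changes was -0.73 (SE 0.0884, adjusted p = 1.2e-06). SENP1, a SUMO protease gene on the opposite strand, overlaps PFKM. It had 12900 counts against 23049 of PFKM over the 12 libraries and a KOPN-8 log2 fold change of -0.06 (adjusted p = 0.541), and whether counting used the strand is not given in the sources used here. PFKL, the liver-type subunit, rose from 340.5, 346 and 363 CPM to 430.2, 417 and 435 CPM in KOPN-8, again with no overlap (0.29, SE 0.0885, adjusted p = 0.0160). Leaving out library 1 or 2 of the KOPN-8 controls or library 3 of KOPN-8 labelled edited gave adjusted p-values of 0.0662, 0.0582 and 0.0507. The call was kept in 16 of 19 alternatives, among them paired libraries (8.48e-05) and leaving out library 2 of both 697 groups (0.000303). In 697, PFKL had 307, 406 and 319 CPM and 271, 329.9 and 279 CPM, which overlap (-0.23, SE 0.0892, adjusted p = 0.116). Without library 1 of the 697 controls that adjusted p was 0.0322, and without library 2 of 697 labelled edited it was 0.0305. With libraries paired it was 0.00457, and with no filter on low counts 0.0251. The changes of PFKL differed by 0.52 (SE 0.13, adjusted p = 0.00418). PFKP, the platelet-type subunit, was not called in either line in the unpaired test over all 12 libraries. With libraries paired, it was called higher in 697 (0.22, adjusted p = 0.00914). Per kilobase, PFKL went from 65.0 ± 0.751% to 72.6 ± 1.33% and PFKM from 10.8 ± 0.312% to 6.17 ± 0.141% of the phosphofructokinase signal in KOPN-8. In 697 the PFKL share was 56.6 ± 1.94% and 50.2 ± 1.30% and the PFKP share 24.4 ± 0.573% and 29.4 ± 2.67%.

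**Figure D4:**
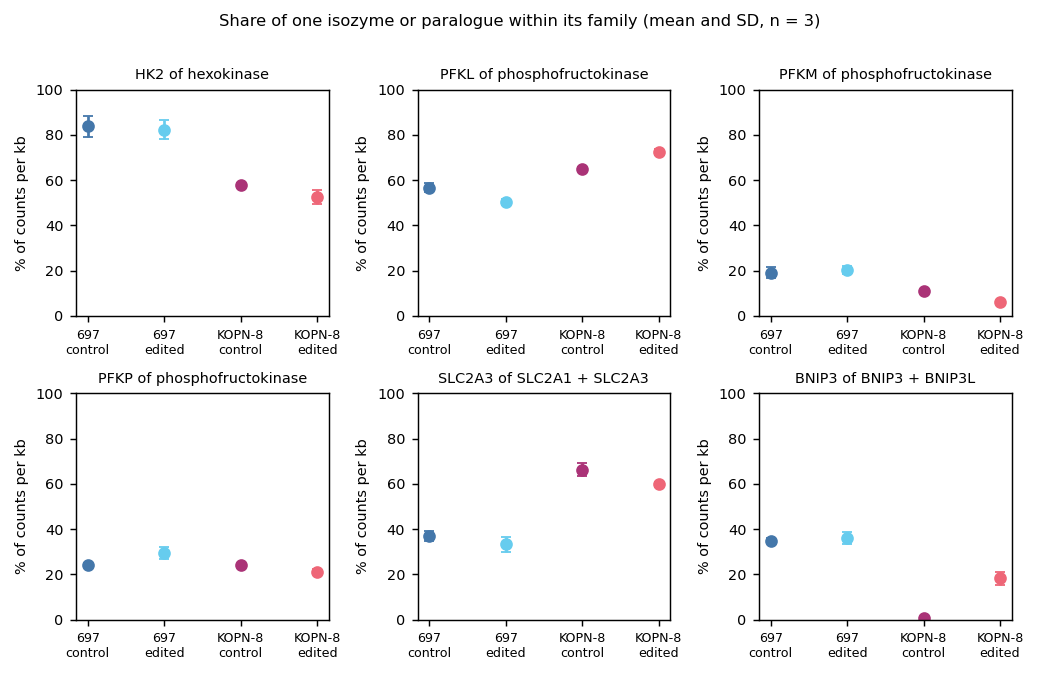
Share of 1 isozyme or paralogue in the summed CPM per kilobase of its family, in percent, for the 4 groups ("edited" as labelled), with points at the mean of 3 libraries and bars of 1 SD. PFKL takes 72.6 ± 1.33% of phosphofructokinase in KOPN-8 labelled edited, and BNIP3 goes from 0.919 ± 0.109% to 18.2 ± 2.82% of the BNIP3 and BNIP3L signal there.

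PFKFB3 and PFKFB4 make fructose 2,6-bisphosphate, an activator of phosphofructokinase. PFKFB4 had the highest coefficient of variation of the members averaging 20 CPM or more in 697, at 46.6% over the control libraries and 56.9% over those labelled edited. Its levels in libraries 1, 2 and 3 were 24.3, 68.1 and 48.8 CPM in control 697 and 46.7, 135 and 64.6 CPM in 697 labelled edited, so that each number was higher in the latter while the groups overlapped. The log2 fold change was 0.80 (SE 0.50, adjusted p = 0.403), and its paired value is given above. In KOPN-8 the levels were 10.1, 18.9 and 13.6 CPM and 9.75, 20.8 and 11.6 CPM. PFKFB4 was lower in control KOPN-8 than in control 697 (-1.72, adjusted p = 0.0204). That call was lost without library 2 of control 697 (adjusted p = 0.078) and without library 1 (0.0659) or library 3 (0.0594) of control KOPN-8. PFKFB3 was not called in any comparison, except between the controls without library 2 of control 697 (0.25, adjusted p = 0.0418) or of both 697 groups (0.24, adjusted p = 0.014).

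Aldolase splits the sugar and TPI1 interconverts the products. None of ALDOA, ALDOC and TPI1 was called in either clone in the unpaired test over all 12 libraries. All 3 were lower in control KOPN-8 than in control 697. With libraries paired, ALDOA was called lower in 697 (-0.38, adjusted p = 0.00197). It was also called lower there with no filter on low counts (-0.38, adjusted p = 0.00032). ALDOA had 70.6, 90.1 and 88.5 CPM in control 697 and 62.3, 74.3 and 53.5 CPM in 697 labelled edited (-0.39, adjusted p = 0.0794). The groups overlapped, since 1 library labelled edited lay above the lowest control. Its adjusted p fell to 0.0214 without library 1 of control 697, to 0.0184 without library 2 of 697 labelled edited and to 0.0463 without library 1 of KOPN-8 labelled edited, which enters through the shared estimate of the spread. ALDOC, the brain-type aldolase, made up 81.3 ± 2.55% of the ALDOA and ALDOC signal per kilobase in control 697 and 80.6 ± 1.97% in control KOPN-8. A protein-coding gene on the same strand, AC093512.2, overlaps ALDOA with 774 counts against 8744.

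Of the 6 enzymes from GAPDH to pyruvate kinase, 1 rose and 1 fell in KOPN-8 and none was called in 697. GAPDH, which oxidises glyceraldehyde 3-phosphate, had 2042, 2044 and 2129 CPM in control KOPN-8 and 2560.3, 2872 and 2655 CPM in KOPN-8 labelled edited. Every library labelled edited exceeded every control (0.38, SE 0.0766, adjusted p = 0.000462). In 697, where it was not called, its levels were 5612, 6229 and 5486 CPM and 5674, 6294 and 5553 CPM, all above the KOPN-8 libraries (0.02, 95% interval -0.14 to 0.17). The changes differed by 0.36 (SE 0.11, adjusted p = 0.0183), which became 0.0553 without library 2 of control 697, 0.0537 without library 2 of control KOPN-8 and 0.0677 without library 2 of KOPN-8 labelled edited. GAPDH has 62 annotated pseudogene rows, which held 0.111% to 0.431% of its counts. ENO2, the neuronal enolase, fell from 44.1, 49.1 and 47.4 CPM to 26.6, 26.2 and 26.9 CPM in KOPN-8 (-0.82, SE 0.22, adjusted p = 0.0195). The sets do not overlap, but the call was lost without library 2 (0.0587) or 3 (0.0532) of control KOPN-8. It was also lost without library 1, 2 or 3 of KOPN-8 labelled edited (0.0582, 0.0572 and 0.0615). ENO2 kept the call in 13 of 19 alternatives, among them paired libraries (7.16e-11) and leaving out library 2 of both 697 groups (4.88e-07). ENO1, the main enolase, held 97.7 ± 0.133% of the enolase signal per kilobase in control KOPN-8 and 98.7 ± 0.130% in KOPN-8 labelled edited. ENO1 itself had log2 fold changes of -0.10 (95% interval -0.31 to 0.12) in 697 and -0.02 (-0.24 to 0.19) in KOPN-8. PGK1 had 0.05 (-0.18 to 0.27) and 0.09 (-0.14 to 0.31), and PGAM1 -0.05 (-0.33 to 0.24) and 0.08 (-0.23 to 0.38). PKM, pyruvate kinase of most tissues, had -0.14 (-0.34 to 0.06) and 0.15 (-0.05 to 0.36), the latter called higher with the KOPN-8 libraries fitted alone (0.16, adjusted p = 0.0236). All 6 were lower in control KOPN-8 than in control 697, by a median of -1.15 on the log2 scale. PGAM1 has pseudogene rows that held 1.60% to 6.40% of its counts, so its reads may be split.

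Lactate and pyruvate genes included 1 that fell in KOPN-8. SLC16A1, the lactate carrier MCT1, had 141, 149.8 and 160.1 CPM in control KOPN-8 and 125, 122 and 109.7 CPM in KOPN-8 labelled edited, without overlap (-0.34, SE 0.0749, adjusted p = 0.00108). In 697 it had 264, 224 and 239.8 CPM and 235, 213 and 218 CPM (-0.13, 95% interval -0.28 to 0.03), and the difference of the changes was not called (-0.21, adjusted p = 0.172). SLC16A3, the carrier MCT4 of cells that export much lactate, set the lines apart. It had 0 counts in control 697 and 1 count in 697 labelled edited, against 32.6, 38.8 and 31.7 CPM in control KOPN-8 and 29.4, 46.5 and 29.3 CPM in KOPN-8 labelled edited. Taking 3 counts over the 3 libraries as the floor, it was at least 518-fold higher in control KOPN-8 than in control 697. CSNK1D, on the opposite strand, overlaps SLC16A3 and had 25730 counts over the 12 libraries, while SLC16A3 had 1 in all of 697. LDHA, the subunit that favours lactate production, was not called in either line, with 2051 ± 176 and 2103 ± 228 CPM in 697 (0.04, 95% interval -0.16 to 0.23) and 678 ± 64.5 and 685 ± 78.9 CPM in KOPN-8 (0.01, -0.18 to 0.21). LDHB, the heart-type subunit, had 0.08 and -0.05, and LDHA made up 87.5 ± 1.47% of both per kilobase in control 697 and 84.0 ± 0.882% in control KOPN-8. PDK1 and PDK3, kinases that shut off pyruvate dehydrogenase, were not called in either clone. PDK1 was lower in control KOPN-8 than in control 697 (-1.64, adjusted p = 5.89e-13) and PDK3 higher (0.26, adjusted p = 0.0123). The PDK3 call was lost without library 1 of control 697 (0.0717), without library 2 of control KOPN-8 (0.0788) and with upper-quartile scaling (0.0969).

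HIF1A mRNA rose in KOPN-8 and was not called in 697. In KOPN-8 it went from 151, 151 and 154 CPM to 193, 211 and 198 CPM, with each library labelled edited above each control (0.40, SE 0.0711, adjusted p = 0.000107). In 697 it had 209, 190.0 and 206 CPM and 207, 175 and 209.7 CPM (-0.03, 95% interval -0.18 to 0.11). The changes differed by 0.43 (SE 0.10, adjusted p = 0.00277), and the KOPN-8 clone labelled edited reached 201 ± 9.49 CPM beside 202 ± 10.4 CPM in control 697. HIF1A is controlled mainly as a protein, which these libraries do not measure. EGLN1, the main oxygen-sensing prolyl hydroxylase, was not called in either clone (-0.12 and -0.20). EGLN3, a hydroxylase that HIF1A induces, had 0 counts in all 697 libraries and 2.25 ± 0.233 and 1.87 ± 0.302 CPM in KOPN-8 (-0.26, 95% interval -0.82 to 0.30). With the same floor it was at least 33.7-fold higher in control KOPN-8 than in control 697.

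Among 7 genes induced by hypoxia, BNIP3 rose in KOPN-8 and KDM3A in 697. The other 5 were not called in either clone in the test over all 12 libraries, although with libraries paired ANKRD37 was called higher and VEGFA lower in 697 (values above). BNIP3, a mitochondrial protein that recruits the autophagy machinery, was nearly silent in control KOPN-8, at 0.519, 0.582 and 0.707 CPM or 30 counts in all. In KOPN-8 labelled edited it reached 7.84, 15.3 and 9.42 CPM, or 526 counts (4.10, SE 0.57, adjusted p = 0.000511). In 697 it had 79.1, 116 and 87.2 CPM without the edit label and 86.6, 141 and 87.4 CPM with it (0.16, 95% interval -0.39 to 0.71), far above every KOPN-8 library. The changes differed by 3.94 (SE 0.65, adjusted p = 0.00218). A pseudogene row, BNIP3P41, had 873 counts in control KOPN-8 and 1443 in KOPN-8 labelled edited (0.67, adjusted p = 0.00917), more than BNIP3 itself, and 85 and 106 in 697, so reads may be split between them. KDM3A, an H3K9 demethylase, rose in 697 from 112, 129 and 103 CPM to 183, 228 and 158 CPM, without overlap (0.72, SE 0.11, adjusted p = 0.000326). In KOPN-8 it had 55.6, 64.7 and 59.0 CPM and 61.0, 69.9 and 62.6 CPM (0.11, 95% interval -0.14 to 0.35), and the changes differed by -0.62 (SE 0.16, adjusted p = 0.0115). Without library 2 of both 697 groups the 697 values of GPI and KDM3A were 0.52 (adjusted p = 0.000137) and 0.66 (3.4e-05).

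ANKRD37, an ankyrin-repeat protein, differed between the lines in its change but in neither line alone. It had 12.6, 9.44 and 7.23 CPM in control 697 and 13.4, 16.6 and 11.3 CPM in 697 labelled edited, with overlap (0.50, adjusted p = 0.0799). In KOPN-8 it had 1.78, 2.45 and 2.55 CPM and 1.43, 1.47 and 1.72 CPM (-0.57, adjusted p = 0.130). The difference was -1.07 (SE 0.33, adjusted p = 0.0215) and lost its call without library 3 of control 697 (0.0559), library 2 of 697 labelled edited (0.0678), library 2 (0.0625) or 3 (0.0723) of control KOPN-8 or library 1 of KOPN-8 labelled edited (0.0616). The 697 change of ANKRD37 was called without library 1 of control 697 (0.72, adjusted p = 0.0114) and without library 3 of 697 labelled edited (0.61, 0.0446). With no filter on low counts it was called too (0.50, adjusted p = 0.0275). BNIP3L, the paralogue of BNIP3, had 75.6, 97.3 and 92.7 CPM and 56.1, 76.4 and 61.0 CPM in KOPN-8 (-0.46, adjusted p = 0.110). It was called lower with the 6 KOPN-8 libraries fitted alone (adjusted p = 0.0265) and without library 2 of both 697 groups (0.0221). It lies on the part of chromosome 8 up to ASAP1, whose 412 genes tested had a median of -0.58 in that comparison, and the part of gene dosage in the BNIP3L value was not tested. VEGFA, the angiogenic growth factor, had -0.26 (95% interval -0.70 to 0.18) in 697 and -0.11 (-0.63 to 0.41) in KOPN-8. P4HA1, a collagen prolyl hydroxylase subunit, had 0.05 (-0.60 to 0.70) and -0.39 (-1.09 to 0.31), and NDRG1, a stress-induced gene, 0.06 (-0.58 to 0.69) and -0.24 (-0.91 to 0.43). All 7 genes were lower in control KOPN-8 than in control 697. The log2 differences were -7.25 for BNIP3, -2.38 for VEGFA, -2.09 for ANKRD37, -1.42 for BNIP3L, -1.41 for P4HA1, -0.94 for KDM3A and -0.74 for NDRG1. NDRG1 had an adjusted p of 0.0417. It passed 0.05 without library 2 of control 697 (-0.42, adjusted p = 0.162), without library 3 of 697 labelled edited (0.0517) and without any single library of KOPN-8 (0.0501 to 0.109).

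**Figure D5:**
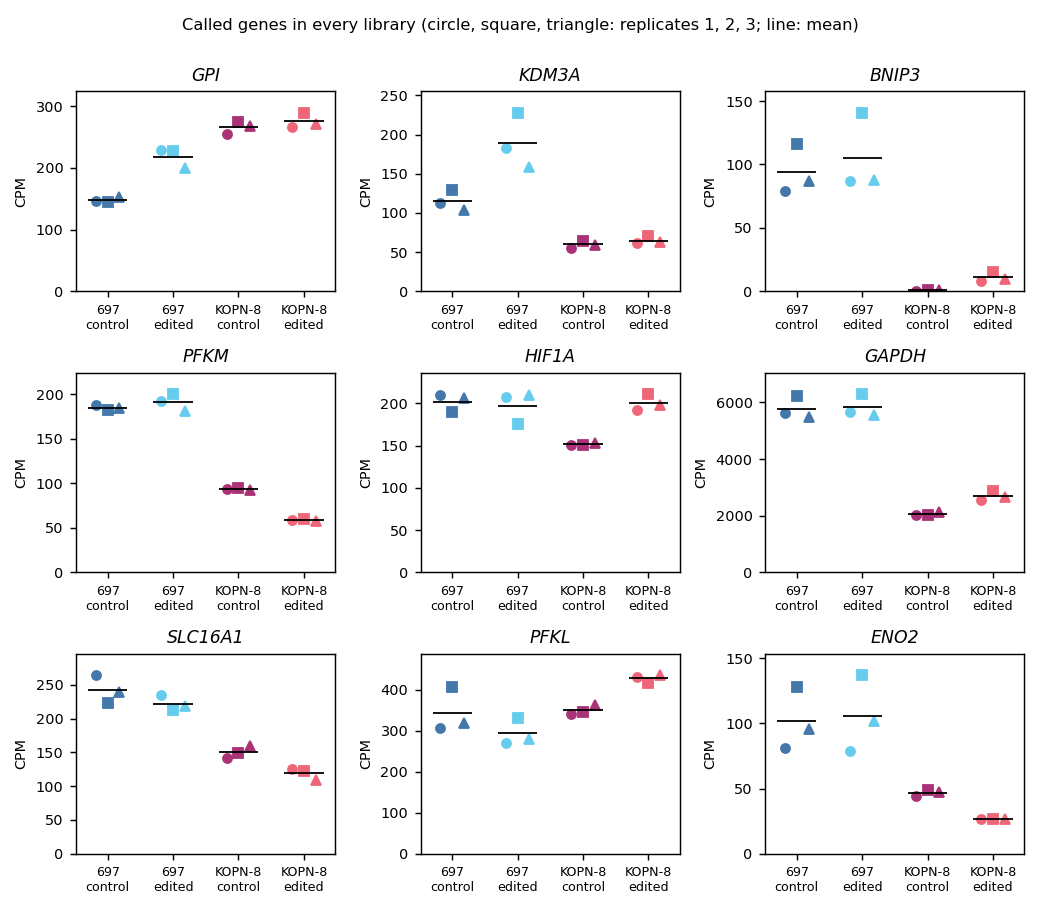
CPM of the 9 genes called in either clone, in each library of the 4 groups ("edited" as labelled), with circles, squares and triangles for replicates 1, 2 and 3 and a line at the mean, on linear axes from 0 that differ by gene. GPI and KDM3A separate within 697, and the other genes within KOPN-8, where BNIP3 stays below every 697 library.

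Between the clones, 8 members changed differently, or 22.9% against 19.5% of all genes tested (7.46% higher and 12.1% lower). BNIP3, PFKL, GAPDH and HIF1A had the higher change in KOPN-8, and GPI, PFKM, KDM3A and ANKRD37 in 697. ALDOA (0.55, adjusted p = 0.0600), ENO2 (-0.88, 0.0704) and PKM (0.29, 0.154) were not called. ALDOA was called with DESeq2 (adjusted p = 0.0247), with no filter on low counts (0.000222), with libraries paired (0.00162), without library 2 of both 697 groups (0.0296) and without library 1 of control 697 (0.0166), library 2 of 697 labelled edited (0.0108), library 2 of control KOPN-8 (0.0207) or library 1 of KOPN-8 labelled edited (0.017). ENO2 was called with DESeq2 (0.0271), with libraries paired (1.37e-08) and without library 2 of control 697 (0.0151), library 1 of 697 labelled edited (0.00581) or library 2 of both 697 groups (0.000146). PKM was called with no filter (0.0189), with libraries paired (0.00892) and without library 2 of 697 labelled edited (0.44, adjusted p = 0.0172). With same-numbered libraries paired in both lines, 6 members had the higher change in KOPN-8 and 10 in 697, where 25.4% of all genes were called. That added PFKP (-0.29), PFKFB4 (-0.83), BNIP3L (-0.53), P4HA1 (-0.42) and NDRG1 (-0.29).

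Of 34 other genes of glycolysis and pyruvate use, 23 were tested. In 697, 1 was called higher and 2 lower, or 13.0% against 9.45% of all genes, and in KOPN-8 3 higher and 6 lower, or 39.1% against 28.7%. MPC1, a subunit of the mitochondrial pyruvate carrier, fell in 697 from 40.1 ± 3.32 to 23.3 ± 2.13 CPM (-0.78, SE 0.0985, adjusted p = 5.08e-06) and in KOPN-8 from 44.4 ± 2.92 to 35.3 ± 3.57 CPM (-0.33, SE 0.0923, adjusted p = 0.00773). SLC2A5, the fructose carrier GLUT5, rose in 697 from 4.56 ± 1.76 to 12.5 ± 2.96 CPM (1.44, adjusted p = 0.00311). In KOPN-8, SLC16A7, the monocarboxylate carrier MCT2, rose from 39.4 ± 2.80 to 62.4 ± 2.34 CPM (0.66, adjusted p = 2.13e-05), and PCK2, the mitochondrial phosphoenolpyruvate carboxykinase, from 45.1 ± 1.09 to 64.1 ± 1.04 CPM (0.51, adjusted p = 2.22e-05).

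Of 40 other genes of the HIF pathway and the hypoxia response, 31 were tested. In 697, 3 were called, all of them lower, or 9.68% against 9.45% of all genes, and in KOPN-8 2 were called higher and 6 lower, or 25.8% against 28.7%. Both shares lie near those of all genes. EPAS1, which encodes the related factor HIF2A, fell in both. In 697 it had 39.6, 61.4 and 54.7 CPM in control libraries and 30.4, 34.4 and 27.1 CPM in those labelled edited (-0.76, SE 0.12, adjusted p = 0.000169). In KOPN-8 it went from 11.5, 12.5 and 12.6 CPM to 2.01, 2.13 and 2.11 CPM (-2.55, SE 0.19, adjusted p = 2.62e-10). The groups do not overlap in either line, and the changes differed by -1.79 (adjusted p = 3.1e-06). ARNT2, a partner of HIF proteins, fell in 697 from 38.3 ± 2.36 to 22.5 ± 3.32 CPM (-0.77, adjusted p = 0.000108) and had 1 count in control KOPN-8.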

How the data were processed

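The authors deposited raw whole-number read counts per gene symbol for 12 stranded, poly-A-selected libraries. STAR, Trimmomatic and DESeq2, with the hg19 build, are named per the submitters' processing notes. The sources used here give no versions, counter or strand setting. The authors' deposited normalized table was not used.

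The robust quasi-likelihood test of edgeR 4.0.16 in R 4.3.3 was run on all 12 libraries, with a mean for each of the 4 groups, TMM normalization and the filterByExpr filter. This kept 15218 genes with at least 99.9% of each library's counts. Contrasts were labelled edited minus control per line, KOPN-8 change minus 697 change, and control KOPN-8 minus control 697. Benjamini-Hochberg adjustment covered all genes tested, with calls below 0.05. CPM used TMM-scaled totals, and the SE is the log2 fold change over the square root of F. Floors of 3 counts cover counting error only. Replicates may be technical, so p-values measure only the spread between these libraries, which exceeded sampling noise (chi-square per degree of freedom 2.91 to 10.7).

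The rule named SETD2, all 35 members (per-library values for those called with a mean of at least 5 CPM, and HIF1A) and, per line, the 4 called genes of 2 further pathway lists with the smallest p. A result on 1 of these genes is not reported here. Members, lists and the chromosome 8 break point were chosen with earlier results of these data known. Exonic lengths and chromosomes came from GENCODE v29 (GRCh38), promoters from RefSeq GRCh38.p14. Deviations of same-numbered libraries over all genes had r of 0.158, 0.296 and 0.143 in 697, all over 0.1, the limit set for pairing. KOPN-8 libraries (0.0673, 0.0609 and 0.106) did not all pass it. The labels state no pairing, so the main test fitted group means only, in 697 too. Calls come from that unpaired test unless another setting is named, and paired 697 calls, which rest on the data alone, are given as an alternative. Alternatives were other scalings (RLE, upper quartile), DESeq2 1.42.0, no filter, the replicate block, each line alone and leaving out each library. The scripts were tested on simulated data.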

Additional observations from a re-analysis of the deposited data

Results flagged for a closer look

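For 8 of the 35 genes the change in the KOPN-8 clone labelled edited differed from that in the 697 clone by the test of the difference itself, the KOPN-8 log2 fold change minus the 697 one. That is 22.9% of members, where 19.5% of all genes tested were called. BNIP3 differed by 3.94, and its level in control KOPN-8 was 0.603 CPM on average. PFKM differed by -0.73 and PFKL by 0.52, 2 subunits of the same enzyme with opposite signs. HIF1A differed by 0.43 and GAPDH by 0.36, both called higher in KOPN-8 and not called in 697. GPI differed by -0.51 and KDM3A by -0.62, both called higher in 697 and not called in KOPN-8. ANKRD37 differed by -1.07 and was called in neither line on its own in the main test. The call of the difference was lost in 6 of 18 alternatives for ANKRD37 and in 3 of 18 for GAPDH. Each clone has its own control, and clone and line cannot be told apart.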

How the results depend on the processing

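In 697, the number of genes called went from 1438 to 2319 with the replicate block and the members called higher from 2 to 6. Those called lower went from 0 to 3 with the block, 1 with DESeq2 and 2 (PFKL and ALDOA) with no filter on low counts. Of all genes, 15.2% were called with the block, 9.46% with DESeq2 and 5.31% with no filter. In KOPN-8 the members called lower went from 3 to 7 with the replicate block and to 5 when the line was fitted alone, and those called higher from 4 to 6 in both, where 35.1% and 38.6% of all genes were called. The block added HK1 (0.23) and PKM (0.15) on the higher side and SLC2A3 (-0.23), BNIP3L (-0.46, adjusted p = 6.1e-07), P4HA1 (-0.39, adjusted p = 4.23e-05) and NDRG1 (-0.24) on the lower. For the difference between clones the block moved members lower from 4 to 10 and higher from 4 to 6. Over all genes the KOPN-8 numbers did not meet the limit set for pairing, although members' deviations of same-numbered libraries went together, so whether they are pairs is not known. Leaving out each library in turn gave 1061 to 1485 genes, 2 to 3 members higher and 0 to 2 lower in 697. It gave 3422 to 4612 genes, 3 to 4 higher and 2 to 4 lower in KOPN-8, 2440 to 3101 genes, 3 to 6 higher and 3 to 5 lower for the difference, and 10644 to 11532 genes, 5 to 7 higher and 23 to 27 lower between the controls. Without library 2 of both 697 groups, chosen after seeing the data, 853 genes were called in 697, where fewer samples were fitted. No called member changed sign under any alternative run. The 2 members called in 697 and 5 of 7 in KOPN-8 stayed called in all of them, as did 6 of 8 for the difference and 28 of 32 between the controls. ENO2 in KOPN-8 also missed the threshold with no filter (adjusted p = 0.0667), and NDRG1 between the controls (0.0943). Counts limit EGLN3, SLC16A3 in 697 and BNIP3 in control KOPN-8. For other shifts the cause was not tested.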
